A study of Mus musculus with 6 samples.

Results

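The cytosolic ribosomal protein genes were described in single cells of dermal collecting lymphatic vessels of C57BL/6 mice. The 84 members (52 of the large subunit, 32 of the small subunit) were all symbols that begin with Rpl or Rps and continue as a numbered ribosomal protein, plus Rplp0, Rplp1, Rplp2 and Rpsa, out of 31017 gene symbols counted. Symbols marked as pseudogenes were not members. The 6 libraries came from young mice (6 weeks), middle-aged mice (12 months) and aged mice (18 months), with 1 library labelled female and 1 labelled male at each age. The labels name no difference of genotype or treatment. Vessels between the inguinal and axillary lymph nodes were dissected after Evans Blue injection and digested with enzymes. The National Institute on Aging supplied the 18-month mice, and the labels name no source for the others, so age and source cannot be told apart there. The labels do not say how many mice a library holds. With 2 libraries per age, p-values measure only the spread between these libraries.

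Each library gave 999 to 8228 cells with at least 500 genes and at most 10% mitochondrial UMIs (24488 in all), with a median of 2536 to 7508 UMIs per cell (unique molecular identifiers, counted once per captured molecule near the 3′ end). Cells were assigned to a type by 16 lists of 8 marker genes, which placed 21293 cells, or 87.0%. All 8 markers were detected in each library's sum of the fibroblast, macrophage, T cell, B cell, monocyte, smooth muscle and blood endothelium gates. Only 60 cells carried the lymphatic endothelial markers, so most of what follows concerns the cells around the lymphatic wall and not its lining. Among the middle-aged pair, the library labelled male held Xist at 1402 CPM (UMIs scaled to a total of 1000000 per sum) and Y-linked genes at 0.106 CPM, whereas the library labelled female held Y-linked genes at 265 CPM and Xist at 0.255 CPM. These 2 libraries go against their sex labels and are called the libraries labelled middle-aged female and labelled middle-aged male throughout. Of 24425 distinct barcodes, 63 occurred in more than 1 library.

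A cytosolic ribosome joins a small subunit, which reads the mRNA, to a large subunit, which forms the peptide bond, and nearly every ribosomal protein is present once per ribosome. Mammalian cells match the output of these genes largely through translation: their mRNAs begin with a C followed by a run of pyrimidines, the 5′ terminal oligopyrimidine (TOP) tract, through which the mTORC1 pathway and the RNA-binding protein Larp1 control them. Naive T cells are known to keep a store of ribosomal protein mRNA.

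Start-site windows are printed for members that are named again in later results, other than Rps21. Most were picked because they hold a pyrimidine run at the start, which the majority of the windows found do not. Each line runs from 20 bases before to 10 bases after an annotated start in RefSeq (GRCm38.p6), with capitals for the unbroken pyrimidine run that holds the start base. Rps28, Rpl36al and Rpl12 are shown as members with a short run or none at the annotated start, and Rps21 at 1 of its 2 annotated starts.
Rpl38, chr11:114668560-114668589, plus strand: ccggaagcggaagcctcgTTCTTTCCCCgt
Rps27, chr3:90213639-90213668, minus strand: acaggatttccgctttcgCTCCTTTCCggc
Rps18, chr17:33955656-33955685, minus strand: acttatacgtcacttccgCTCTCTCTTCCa
Rps21, chr2:180257359-180257388, plus strand: gcacttaccgaggacccgCCCTCCTgccca
Rplp2, chr7:141447631-141447660, plus strand: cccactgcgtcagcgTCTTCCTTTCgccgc
Rpl15, chr14:18270977-18271006, minus strand: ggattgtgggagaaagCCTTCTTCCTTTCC
Rps28, chr17:33824553-33824582, minus strand: tcctgggtaccgcgtgcggTCTCgcgagag
Rpl36al, chr12:69184058-69184087, minus strand: gttcgcattcccgtcgctcaggttcagttc
Rpl12, chr2:32961692-32961721, plus strand: gcgtgggcggagcaggatccgtcttttcgg
A start window was found for 64 of the 84 members. A C at the start followed by at least 4 pyrimidines occurred in 13 of them (20.3%), against 2.89% of 19407 genes with a window. An unbroken run of at least 8 pyrimidines within 20 bases of the start occurred in 30 members (46.9%), against 18.5% of all genes. The motif CCGGAAG, searched on both strands of the window from 250 bases before to 50 bases after the start, occurred in 26 members (40.6%), against 12.1% of all genes. AAGATGGC, searched likewise, occurred in 6 members (9.38%) against 3.46%, and TATAAA between 15 and 40 bases upstream on the coding strand in 1 member (1.56%) against 2.79%. These matches describe the letters only.

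Members differed widely in level. Counts of this 3′ assay are not divided by gene length, so they compare captured molecules. Averaged over the 7 types compared below, Rps24, of the small subunit, was highest at 5911 CPM, and Rpl13 (5385 CPM), Rps29 (4879 CPM) and Rpl23 (4711 CPM) were among the 5 highest. At the other end stood the paralogs Rpl3l (0.0499 CPM), Rpl39l (3.36 CPM), Rpl7l1 (26.9 CPM), Rps27l (260 CPM) and Rpl36al (263 CPM). Rpl10l, a testis-expressed retrogene copy of Rpl10, had 0 UMIs in 24488 cells, which allows up to 0.0406 CPM (exact Poisson interval, counting error only). The 10 highest members held 23.2% of all ribosomal protein UMIs, so the total was spread over most of the family. The genes lie on 19 chromosomes, with 14 on chromosome 7 and 4 on X.

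Many members have near-identical copies, which could split or lose reads. Of the 84, 60 shared at least one 98-base window of the last 400 bases of a transcript with another annotated transcript, and 19 shared one with another gene that was itself counted. Rps12 and Rpl10 shared all such windows with Rps12-ps3 and Rpl10-ps3, Rps27 shared 98.4% with Rps27rt, Rpl27 86.1% with Rpl27-ps3, Rpl35 74.9% with Gm10269 or Gm2000, Rpl9 72.3% with Rpl9-ps6, Rpl36al 69.3% with Gm49383 and Rpl36a 60.7% with Rpl36a-ps1, and the rest of the 19 smaller parts. Levels of these 8 genes are therefore uncertain in size. The partner Rpl27-ps3 was itself at 16.5 ± 7.69 CPM in fibroblasts (SD, n = 6 libraries), and Rps27rt at 64.6 ± 26.5 CPM.

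Ribosomal protein genes took 31.2% ± 5.07 of all UMIs in T cells (SD, n = 6 libraries), the highest mean of any type summed in every library, and 29.3% ± 3.22 in B cells (n = 4). Monocytes had 22.3% ± 2.96 (n = 4) and fibroblasts, the most numerous type with 12174 cells, 20.0% ± 3.45 (n = 6). Lower shares were found in blood endothelium (14.9% ± 2.11, n = 6), smooth muscle (13.8% ± 5.53, n = 5) and macrophages (13.0% ± 1.72, n = 6). The T cell share exceeded that of fibroblasts, blood endothelium and macrophages in 6 of 6 libraries each, and the fibroblast share exceeded that of blood endothelium and macrophages in 6 of 6. Among the last 3 of this order, blood endothelium was above smooth muscle in 3 of 5 libraries, smooth muscle above macrophages in 2 of 5, and blood endothelium above macrophages in 5 of 6, by 1.88 points on average. T cells were above B cells in only 2 of the 4 libraries that had both. No test was run on these shares. In sums of this kind, fewer UMIs of a gene per cell and fewer cells using it cannot be told apart.

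**Figure D1:**
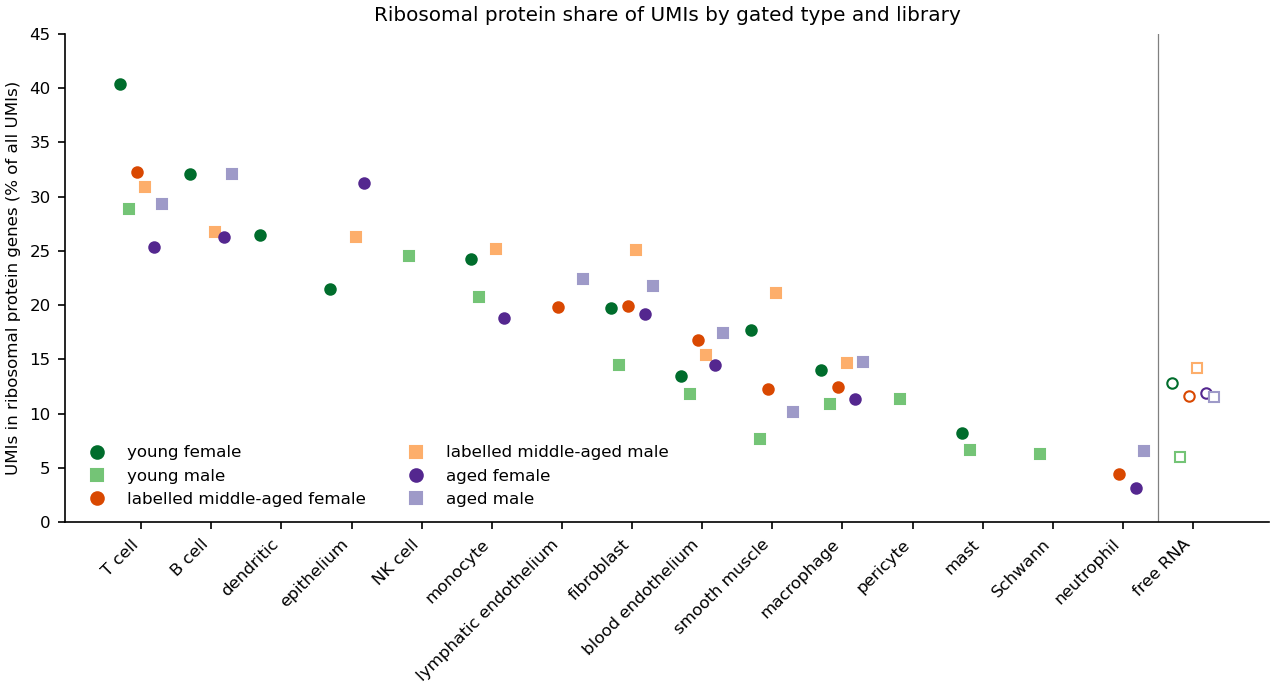
Share of UMIs in ribosomal protein genes (y axis, % of all UMIs) for each gated type with at least 20 cells in a library (x axis), 1 point per library, with the barcodes of 10 to 100 UMIs (free RNA) as open points on the right. T cells lie between 25.3% and 40.3% and macrophages between 10.9% and 14.8%, and the young male library has the lowest fibroblast point at 14.5%.

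In T cells the share was 40.3% in the young female library and 28.8% in the young male library, 32.3% and 30.8% in the libraries labelled middle-aged female and labelled middle-aged male, and 25.3% and 29.3% in the aged female and aged male libraries. The young female library stood alone at the top. Fibroblasts had 19.7% and 14.5% in young female and young male, 19.9% and 25.03% in labelled middle-aged female and labelled middle-aged male, and 19.2% and 21.7% in aged female and aged male. Here the young male library was lowest and labelled middle-aged male highest. Macrophages ranged from 10.9% in young male to 14.8% in aged male. Aged and young libraries overlapped in these 3 types. Blood endothelium had 13.5% and 11.8% in young female and young male, and 14.5% and 17.4% in aged female and aged male, without overlap. Its libraries labelled middle-aged female and labelled middle-aged male, at 16.8% and 15.4%, were also above both young ones. Both middle-aged libraries were above both young ones in fibroblasts, by as little as 0.141 points, and both aged libraries were below both middle-aged ones in T cells.

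Types with few sums extended the range. Neutrophils were lowest of all, with 4.46% in the library labelled middle-aged female and 3.16% and 6.56% in the aged female and aged male libraries. Epithelial cells had 21.4%, 26.3% and 31.3% in young female, labelled middle-aged male and aged female. Lymphatic endothelium reached the minimum of 20 cells in 2 libraries, with 19.8% in labelled middle-aged female (25 cells) and 22.4% in aged male (20 cells). Both values were above the blood endothelium of the same library, which had 16.8% and 17.4%. Single sums of dendritic cells (26.4%), NK cells (24.5%), pericytes (11.4%) and Schwann cells (6.24%) have no replicate.

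Smooth muscle was not uniform. Its sums had 17.7% in young female, 7.67% in young male, 12.3% in labelled middle-aged female, 21.1% in labelled middle-aged male and 10.2% in aged male. The 2 highest sums also held epithelial keratin: Krt14 had 773 CPM in the young female sum and 1088 CPM in labelled middle-aged male, and at 0 in the other 3 sums. The whole 8-gene epithelial list summed to 1353 and 2057 CPM there, with 5 and 8 of its genes detected, and to 0 elsewhere. The part of those cells in the share was not tested. Of the gene-by-gene results for smooth muscle, only the counts of members called are also given without these 2 sums. That fit keeps 3 sums of smooth muscle, below the minimum of 4 libraries otherwise set for a type.

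Empty droplets carried ribosomal protein RNA as well. Barcodes of 10 to 100 UMIs, taken as free RNA, held 12.8% and 6.00% ribosomal protein UMIs in young female and young male, 11.6% and 14.2% in labelled middle-aged female and labelled middle-aged male, and 11.9% and 11.5% in aged female and aged male. Macrophages stood at 0.947 to 1.81 times this level, blood endothelium at 1.05 to 1.97 times and smooth muscle at 0.880 to 1.48 times. The shares of these 3 types therefore cannot be set apart from free RNA in several libraries. T cells stood at 2.12 to 4.80 times, and fibroblasts at 1.55 to 2.41 times. Neutrophils were below it in 3 of 3 libraries.

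The difference between types was also seen cell by cell. The median T cell had 24.3% to 40.8% ribosomal protein UMIs across the 6 libraries, and the median macrophage 10.02% to 14.6%. The 10th percentile of T cells lay above the 90th percentile of macrophages in 5 of 6 libraries, and in aged male they were 18.4% and 18.7%. With the cells of a type and library split into 3 equal groups by UMIs, the median share was higher in the group with the most UMIs than in the group with the fewest in 21 of 24 cases. It was 14.99% and 12.6% in young male fibroblasts, and 28.4% and 34.3%, the other way round, in T cells of the library labelled middle-aged female. The large subunit gave slightly more UMIs than the small one in most types, with a ratio of 1.18 ± 0.0231 in fibroblasts (SD, n = 6), 1.11 ± 0.0320 in T cells (n = 6) and 1.08 ± 0.0368 in macrophages (n = 6).

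Gene by gene, the 7 types with sums in at least 4 libraries were each set against the mean of the other 6 in one edgeR quasi-likelihood fit with library as a block, and 81 of the 84 members passed the filter on low counts. Rpl3l, Rpl10l and Rpl39l did not. In T cells 78 members were higher and 1 was lower at an adjusted p under 0.05, where 21.9% and 19.9% of all 6742 genes tested were called higher and lower. B cells had 69 members higher and 0 lower, with 17.1% and 14.2% of all genes called in those directions, and another 7 members had an unadjusted p under 0.05. The median member log2 fold change was 0.79 in T cells and 0.70 in B cells, beside medians of -0.09 and -0.11 over all genes.

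The 3 largest T cell differences were those of Rpl12, of the stalk base of the large subunit, of Rpsa, the small-subunit protein also known as the laminin receptor precursor, and of Rps15a of the small subunit. Rpl12 had 8661 and 6106 CPM in T cells of young female and young male, 4580 and 5672 CPM in labelled middle-aged female and labelled middle-aged male, and 4641 and 5507 CPM in aged female and aged male. Fibroblasts, in the same order, had 2548 and 2142, 1949 and 3016, and 2237 and 2653 CPM. The T cell values do not overlap with the fibroblast values. The fitted log2 difference of Rpl12 was 1.60 (SE 0.130, edgeR quasi-likelihood test, adjusted p = 7.82e-13). Rpsa was higher in T cells by 1.28 on the log2 scale (SE 0.123) and Rps15a by 1.13 (SE 0.134).

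B cells, known for antibody genes and antigen presentation, were led by Rps27 (log2 difference 1.22, SE 0.158), Rps19 (1.15, SE 0.152) and Rps24 (1.07, SE 0.146). All 3 are small-subunit proteins, and Rps19 is known for its mutation in Diamond-Blackfan anemia in humans. Rps24 averaged 9953 ± 1361 CPM in B cells (SD, n = 4) and 10232 ± 1720 CPM in T cells (n = 6), and 5104 ± 960 CPM in fibroblasts (n = 6).

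Monocytes had 23 members higher and 0 lower, with 18.3% and 8.72% of all genes called higher and lower. They were led by Rps27l (log2 difference 0.89, SE 0.200), Rpl36al (0.84, SE 0.181) and Rps9 (0.83, SE 0.151), the last a core small-subunit protein. This count rested on 4 sums of 21 to 141 cells: it was 4 without young male, 11 without young female, 10 without labelled middle-aged male and 7 without aged female. It was also 9 without labelled middle-aged female and 11 without aged male, which hold no monocyte sum, and 11.8% to 16.7% of all genes were called higher in these fits.

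Fibroblasts had 36 members higher and 0 lower, where 36.9% and 19.7% of all genes were called. The median member stood 0.25 higher on the log2 scale and the median of all genes 0.13 higher, so the family stood little above the rest. With total UMIs as the only scaling, the split was 11 higher and 6 lower (30.9% and 25.3% of all genes). It was 17 higher and 1 lower without aged male, 22 and 1 without labelled middle-aged female, and 22 and 0 without aged female, with 32.1% to 35.8% of all genes called higher in these fits. Leading members were Rpl22l1, the paralog of Rpl22 (0.72, SE 0.129), the X-linked Rps4x (0.63, SE 0.125) and the stalk protein Rplp0 (0.63, SE 0.114).

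Macrophages had 66 members lower and 2 higher, with 17.4% of all genes called lower and 34.2% higher. In cells of at least 1000 genes, 34 were lower and 5 higher, beside 5.89% and 31.5% of all genes. B cells were not among the other types in that fit, so these counts rest on a different comparison. The lower members were led by Rplp0 (log2 difference -1.13, SE 0.131), Rpl22l1 (-1.08, SE 0.149) and Rpl13 (-1.06, SE 0.145). The 2 higher members were Rps29 and Rpl7l1. Rps29 encodes a small zinc-binding protein of the small subunit. It had 7086 and 3658 CPM in macrophages of young female and young male, 11103 and 10349 CPM in labelled middle-aged female and labelled middle-aged male, and 4774 and 5504 CPM in aged female and aged male. Fibroblasts of the same libraries had 3451 and 1663, 6210 and 5866, and 2856 and 2651 CPM. Values overlap across libraries, but macrophages were above fibroblasts in each of the 6. Rps29 was the only member lower in fibroblasts than in macrophages in every library, whereas 67 of the 81 members were higher in fibroblasts in every library, beside 32.8% of all genes. The fitted difference of Rps29 in macrophages was 0.90 on the log2 scale (SE 0.123, edgeR adjusted p = 9.09e-08). Rpl7l1, a paralog of Rpl7, was higher by 0.68 (SE 0.186, adjusted p = 0.00245).

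Blood endothelium had 70 members lower and 0 higher, with 19.7% of all genes called lower and 28.6% higher. The 3 largest were Rpl36al (-1.24, SE 0.149), Rps26, which sits at the mRNA exit (-1.15, SE 0.144), and Rpsa (-1.01, SE 0.145). Smooth muscle had 77 members lower and 0 higher, where 20.1% of all genes were called lower and 21.3% higher. Without the 2 keratin-holding sums, 76 members were lower and 0 higher (13.0% and 18.4% of all genes). Rps29 (-1.52, SE 0.164) and Rps20 (-1.30, SE 0.163), both of the small subunit, were among the 3 lowest there. The median of all genes in smooth muscle was -0.12 with TMM scaling (trimmed mean of M values) and 0.16 with total UMI scaling, where 2 members were higher and 67 lower (27.2% and 12.9% of all genes). With stricter gates 44 members were lower in smooth muscle (5.47% of all genes).

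**Figure D2:**
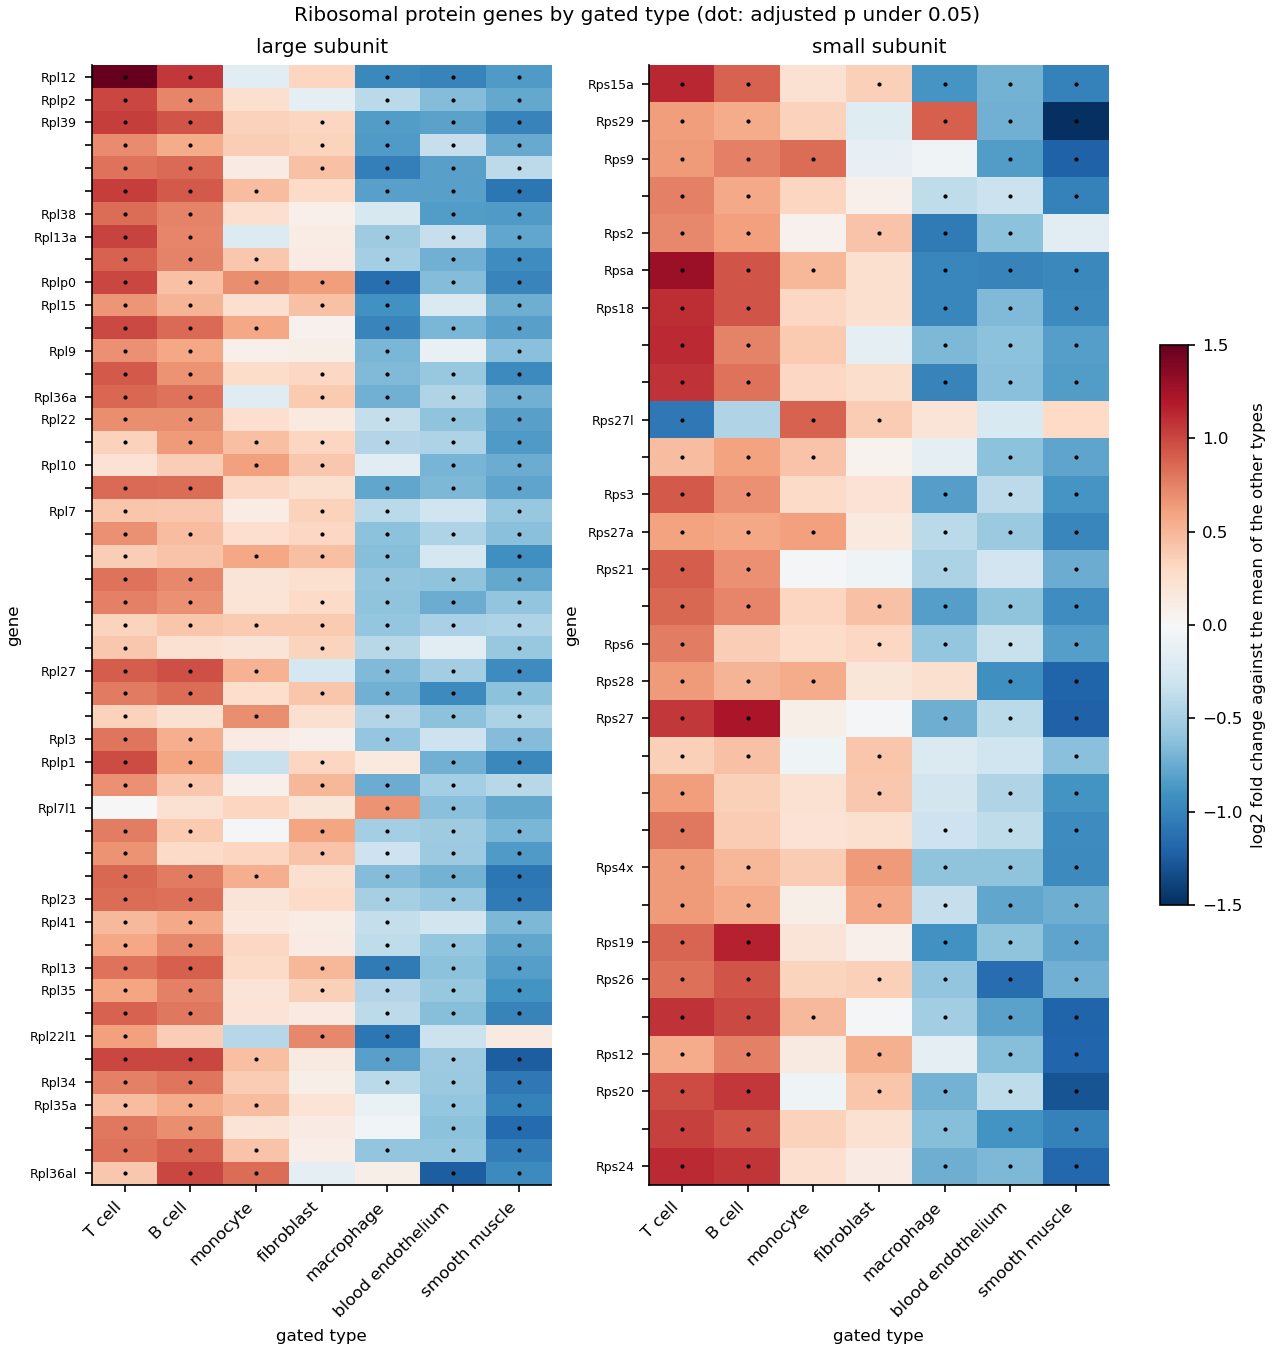
Log2 fold change of 79 of the 81 ribosomal protein genes tested (rows, by subunit, with names for genes described in the text) in each of 7 gated types against the mean of the other types (columns), with a dot where the adjusted p was under 0.05. T and B cells are red in nearly all rows and macrophages, blood endothelium and smooth muscle blue, with Rps29 in macrophages (0.90) and Rps27l in T cells (-1.08) against their columns.

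The makeup of the family also differed between types once its total was set equal. Scaled to the members' own UMIs, 18 members were higher and 22 lower in T cells (8.83% and 51.4% of all genes), 17 and 30 in macrophages (55.0% and 5.06%), 17 and 12 in fibroblasts (28.4% and 24.2%), 17 and 13 in blood endothelium (52.9% and 6.3%), 20 and 11 in smooth muscle (48.3% and 5.49%), 11 and 10 in monocytes (12.8% and 14.5%), and 14 and 19 in B cells (7.19% and 38.7%). Within the family, Rps29 was higher in macrophages by 1.40 on the log2 scale, Rpl7l1 by 1.26, Rps28 by 0.74 and the stalk protein Rplp1 by 0.64, while Rplp0 was lower by 0.64 (log2 -0.64) and Rps2 by 0.56 (log2 -0.56). T cells were higher for Rpl12 (0.81) and Rpsa (0.49) and lower for Rps27l (-1.84) and Rpl10 (-0.57). Smooth muscle was higher for Rps27l (1.23), Rpl22l1 (1.15) and Rps2 (0.80), and lower for Rps29 (-0.60).

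Rps27l, whose product differs from Rps27 by a few residues and which is known as a p53 target, was the only member lower in T cells, at 81.4 and 115 CPM in young female and young male, 225 and 123 CPM in labelled middle-aged female and labelled middle-aged male, and 115 and 138 CPM in aged female and aged male. In fibroblasts it had 304 and 223, 275 and 332, and 255 and 281 CPM in that order. T cells were below fibroblasts in every library. Its fitted log2 difference in T cells was -1.08 (SE 0.189, edgeR adjusted p = 1.43e-05), while Rps27 was higher there by 1.06. Rps27l was highest in epithelial cells, at 504 ± 103 CPM (SD, n = 3), and lowest in neutrophils, at 43.6 ± 14.3 CPM (n = 3).

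Rpl22l1 was higher in fibroblasts by 0.72 and lower in macrophages by 1.08 (log2 -1.08), while Rpl22 was 0.14 in fibroblasts, which did not pass the test and was -0.04 with total UMIs, and -0.36 in macrophages, which did. Rpl22l1 averaged 802 ± 136 CPM in fibroblasts and 280 ± 58.0 CPM in macrophages (SD, n = 6 each). Rpl36al was highest in B cells at 465.9 ± 304 CPM (n = 4), and averaged 135 ± 93.7 CPM in blood endothelium (n = 6), and the X-linked parent Rpl36a had 1888 ± 410 and 960 ± 298 CPM there. Neutrophils were lower still for Rpl36al, at 44.1 ± 21.9 CPM (n = 3).

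Rpl39l, known from testis and embryonic stem cells, had 698 of its 773 UMIs in fibroblasts, which held 49287608 of all 90913830 UMIs in cells. It had 14.2 CPM in fibroblasts (exact Poisson interval 13.1 to 15.3, counting error only), against 1.79 CPM in macrophages (1.16 to 2.64) and 1.25 CPM in blood endothelium (0.340 to 3.19). Smooth muscle had 2.89 CPM (0.350 to 10.4). Dendritic cells had 14.2 CPM on 3 UMIs (2.93 to 41.5), so they cannot be set apart from fibroblasts. Across libraries fibroblasts had 15.9 and 13.8 CPM in young female and young male, 12.1 and 12.2 CPM in labelled middle-aged female and labelled middle-aged male, and 12.2 and 17.6 CPM in aged female and aged male, with no overlap with macrophages, which reached at most 2.95 CPM. Free RNA held 2.72 to 10.6 CPM of it, below fibroblasts in 6 of 6 libraries. Rpl39l did not pass the filter of the type fit, so this difference was not tested. Epithelial cells had 0 UMIs of 7579632, which allows up to 0.487 CPM. Rpl3l, a heart and skeletal muscle form of Rpl3, had 26 UMIs in all, of which 9 were in neutrophils (17.6 CPM, interval 8.04 to 33.4). In neutrophils it had 10.4 CPM in the library labelled middle-aged female, and 67.5 and 8.45 CPM in aged female and aged male, beside 7.10, 3.49 and 8.67 CPM in the free RNA of these libraries.

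**Figure D3:**
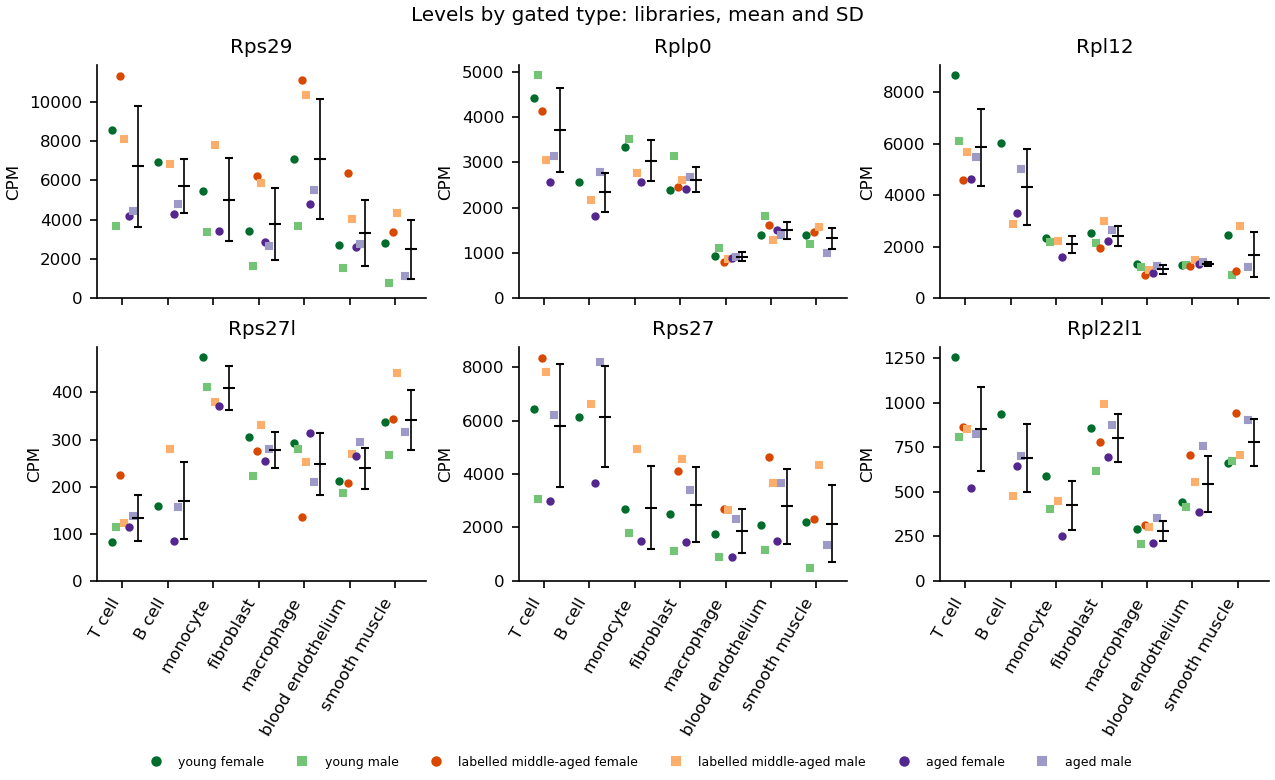
Levels in CPM (y axis, from 0) of 6 ribosomal protein genes in 7 gated types (x axis), 1 point per library with the mean and SD in black. Rps29 reaches 11103 CPM in macrophages, Rpl12 is highest in T cells and Rps27l is lowest there.

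The acidic stalk, through which the ribosome meets the elongation factors, is built of Rplp0, Rplp1 and Rplp2. In macrophages Rplp0 averaged 922 ± 105 CPM, Rplp1 3705 ± 448 CPM and Rplp2 1659 ± 273 CPM, against 2616 ± 279, 4137 ± 815 and 1973 ± 547 CPM in fibroblasts (SD, n = 6 each). Against the mean of the other types, macrophages were lower for Rplp0 (-1.13) and Rplp2 (-0.40), while Rplp1 was 0.15 with TMM and -0.02 with total UMI scaling and passed the test in neither. In monocytes, Rplp0 was higher by 0.70, while Rplp1 was -0.34 and Rplp2 0.24, and neither of those passed.

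Genes tied to ribosomes but outside the naming rule were measured beside the members. Fau encodes a small-subunit protein fused to a ubiquitin-like one, and Rack1 is a scaffold on the small subunit. Fau was higher in T cells (0.76), B cells (1.05) and monocytes (1.04) and lower in smooth muscle (-1.43), blood endothelium (-0.88) and fibroblasts (-0.47). Rack1 was higher in T cells (0.76), B cells (0.49), monocytes (0.48) and fibroblasts (0.41). It was lower in smooth muscle (-0.92), blood endothelium (-0.84) and macrophages (-0.38). Rps27a, which encodes a small-subunit protein fused to ubiquitin, was higher in T cells (0.61) and lower in smooth muscle (-0.98), as was Rpl41, the smallest member (0.48 and -0.68).

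Of 20 elongation and TOP-mRNA factors tested, 13 were higher and 1 lower in T cells, 15 and 0 in fibroblasts, 6 and 0 in B cells, and 4 and 0 in monocytes. By contrast 12 were lower and 0 higher in smooth muscle, as in macrophages, and 11 lower and 0 higher in blood endothelium. Of all genes, 21.9% and 19.9% were called higher and lower in T cells, 36.9% and 19.7% in fibroblasts, 17.1% and 14.2% in B cells, 18.3% and 8.72% in monocytes, 21.3% and 20.1% in smooth muscle, 34.2% and 17.4% in macrophages, and 28.6% and 19.7% in blood endothelium, and the counts of the lists that follow stand beside the same shares. The T cell examples of smallest p were Eef1b2 (0.75, SE 0.133), which reloads the elongation factor that carries tRNA, and Eif3m (0.71, SE 0.132), an initiation factor subunit with a TOP mRNA. Ribosome biogenesis genes were more mixed, with 7 higher and 3 lower of 35 in T cells, 9 and 0 in B cells, 11 and 6 in fibroblasts, and 0 and 16 in macrophages. The T cell and fibroblast counts of this list were below the shares of all genes. Examples were Npm1 in T cells (0.72, SE 0.136), a nucleolar chaperone, and Dkc1 in macrophages (-1.63, SE 0.253), the pseudouridine synthase of ribosomal RNA. Of 28 initiation genes, 1 was higher and 7 lower in T cells, among them Eif4e, the cap-binding protein (-1.26, SE 0.197), which in fibroblasts was higher (2.05, SE 0.132).

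Of 14 mTORC1 and growth-control genes tested, 4 were higher and 3 lower in T cells and 7 and 4 in fibroblasts. In T cells these counts were close to the shares of all genes. Pdcd4, an inhibitor of the helicase Eif4a, was higher in T cells (2.17, SE 0.178) and B cells (2.01, SE 0.231) and lower in macrophages (-1.26, SE 0.201). Ddit4, which restrains mTORC1, was higher in blood endothelium (2.55, SE 0.196) and lower in macrophages (-2.04, SE 0.248). Of 12 quality-control genes, 7 were higher and 0 lower in fibroblasts. Map3k20, the kinase that senses stalled ribosomes, was higher in smooth muscle by 5.07 on the log2 scale (SE 0.243). These examples were picked by p after their values were seen. Of 12 immediate early genes, a list kept as a sign of tissue digestion, 0 were higher and 7 lower in T cells, 1 and 7 in B cells, 8 and 0 in macrophages, 10 and 0 in blood endothelium, and 5 and 2 in both fibroblasts and smooth muscle. Their part in the differences between types was not tested.

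Age was compared in the 4 types with at least 20 cells in every library, with labelled sex as a covariate. No member was called in any of the 3 age contrasts in fibroblasts (82 members tested), macrophages (81), blood endothelium (80) or T cells (80) by the edgeR quasi-likelihood test, and 0.0% of all genes was called in each of these fits. At an unadjusted p under 0.05, aged against young gave 0 members in fibroblasts (3.89% of all genes), 5 in blood endothelium (6.38%), 0 in macrophages (2.22%) and 14 in T cells (5.86%). Middle-aged against young gave 9 in fibroblasts (5.09%), 12 in blood endothelium (7.63%), 4 in macrophages (8.28%) and 6 in T cells (7.88%). Aged against middle-aged gave 3 in fibroblasts (1.9%), blood endothelium (5.72%), macrophages (5.78%) and T cells (1.36%). DESeq2 called 3 members higher in middle-aged than in young fibroblasts, where it called 0.222% of all genes higher, and 3 in macrophages (0.69%). These were Rps28, Rps29 and Rpl38 in both. It also called Rps28 and Rps29 lower in aged than in middle-aged macrophages (0.525% of all genes), and 0 members in the other fits.

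Rps28, Rps29 and Rpl38, all among the shortest members, had the smallest p of the family in middle-aged against young fibroblasts, macrophages and blood endothelium, and in aged against middle-aged in all 4 types. None passed the edgeR threshold. In fibroblasts Rps28 had 1228 and 452 CPM in young female and young male, 2079 and 1694 CPM in labelled middle-aged female and labelled middle-aged male, and 1335 and 523 CPM in aged female and aged male. The 2 middle-aged libraries were the highest, without overlap. The log2 difference of middle-aged against young was 1.48 (SE 0.359, edgeR adjusted p = 0.748), and that of aged against middle-aged -1.38 (SE 0.358, adjusted p = 1.00). Rps29 had 3451 and 1663, 6210 and 5866, and 2856 and 2651 CPM in the same order and Rpl38 had 1679 and 704, 2801 and 3165, and 1364 and 1442 CPM. In macrophages Rps28 had 1249 and 582 CPM in young female and young male, 2042 and 1578 CPM in labelled middle-aged female and labelled middle-aged male, and 1160 and 611 CPM in aged female and aged male, and the 2 middle-aged libraries were again the highest.

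Rps28 was also the member nearest the threshold for labelled sex. The library labelled female was above the library labelled male at each age in fibroblasts, macrophages, blood endothelium and T cells. The log2 difference was 0.96 in fibroblasts (SE 0.290), 1.14 in blood endothelium (SE 0.238), 0.79 in macrophages (SE 0.282) and 1.20 in T cells (SE 0.327), with unadjusted p of 0.0154, 0.000881, 0.0226 and 0.00423 and edgeR adjusted p of 0.999 to 1.00. With the middle-aged pair's labels exchanged to follow Xist, the differences were 0.68, 0.41, 0.47 and 0.66, and unadjusted p 0.0946, 0.333, 0.197 and 0.157. No member was called for labelled sex, where 0.0% of all genes was called in fibroblasts, blood endothelium and macrophages and 0.0331% in T cells, that is 1 gene, the chemokine gene Cxcl2. Xist itself was not called in any of the 4 types with these labels. The lack of calls therefore does not show that the sexes are alike. At an unadjusted p under 0.05 there was 1 member in each of fibroblasts (1.04% of all genes), blood endothelium (2.09%) and macrophages (1.8%), and 3 in T cells (2.91%), namely Rps28, Rpl41 and Rps2. DESeq2 called 0 members for labelled sex in the 4 types.

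No X-linked member passed the test for labelled sex. Log2 differences of labelled female against labelled male in fibroblasts were -0.27 for Rps4x (SE 0.251), -0.07 for Rpl10 (SE 0.321), -0.22 for Rpl36a (SE 0.344) and -0.16 for Rpl39 (SE 0.413). With the middle-aged labels exchanged they were -0.13, -0.34, 0.01 and 0.11. In that fit Xist differed by 13.3 (SE 0.446, adjusted p = 1.75e-05). With the labels as given, Xist differed by 9.63 in fibroblasts (SE 6.37) and was not called. The fit with the given labels thus cannot show a lack of sex differences.

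Of 80 members tested in T cells, 77 had a lower fitted value in aged than in young libraries. Of all 3019 genes tested there, 1586 had a higher one. The median log2 difference of the members was -0.66, beside 0.04 over all genes. At an unadjusted p under 0.05 there were 14 members, all lower, and 5.86% of all genes. With total UMIs the member median was -0.37 beside 0.33 over all genes. In that fit 5 members had an unadjusted p under 0.05, a count that cannot be weighed without the share of all genes. Without young male the member median was -0.98, and the young group of that fit is the young female library alone, which had the highest T cell share. Aged minus young, the T cell share differed by -15.0 points between the female libraries and by 0.471 points between the male ones. Rps18, of the head of the small subunit, had the smallest p. It had 6315 and 4587 CPM in young female and young male, 3834 and 3123 CPM in labelled middle-aged female and labelled middle-aged male, and 3277 and 2443 CPM in aged female and aged male. Both young libraries were above all others. The log2 difference of aged against young was -1.21 (SE 0.362, edgeR adjusted p = 0.705), which did not pass. Rpl15 (-1.17, SE 0.380) and Rpl9 (-1.07, SE 0.380) followed. In middle-aged against young the 3 of smallest p were Rpl15 (-0.998, SE 0.379), Rps3 (-0.87, SE 0.363) and Rps6 (-0.89, SE 0.373). The contrasts share the young libraries and are not independent.

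In the other types the 3 members of smallest p for aged against young were Rpl36al (1.65, SE 0.882), Rpl35a (0.65, SE 0.397) and Rps26 (0.69, SE 0.434) in fibroblasts, Rps26 (0.92, SE 0.362), Rpl36al (1.48, SE 0.594) and Rpl34 (0.85, SE 0.356) in blood endothelium, and in macrophages included Rpl36al (1.55, SE 0.734) and Rps18 (-0.41, SE 0.336). None passed. Median log2 differences of the members were 0.15 in fibroblasts, 0.27 in blood endothelium and -0.01 in macrophages, beside all-gene medians of -0.00351, 0.0106 and -0.00368. Without young male the fibroblast member median was -0.0447. The other ribosome, initiation, biogenesis, mTORC1 and quality-control lists held 0 called genes in each age contrast.

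Single libraries decided several of these counts. Without the library labelled middle-aged male, 5 members were higher in middle-aged than in young fibroblasts (5.11% of all genes), namely Rpl13a, Rpl27, Rpl35, Rpl36al and Rps27, and Rpl36al was in blood endothelium (0.365%). Without the library labelled middle-aged female, Rps28 alone was called, higher in middle-aged than in young fibroblasts (1.53% of all genes) and lower in aged than in middle-aged ones (1.57%). In macrophages 7 members were higher in middle-aged than in young without aged male (3.01% of all genes) and 8 without aged female (3.5%). Without aged male, 5 were lower in aged than in middle-aged macrophages (3.63%). Without aged female, Rpl36al and Rpl27 were higher in aged than in young macrophages (1.13%), and Rpl36al higher in aged than in middle-aged ones (0.134%). Each such fit leaves an age with 1 library, whose spread is assumed to be that of the others.

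**Figure D4:**
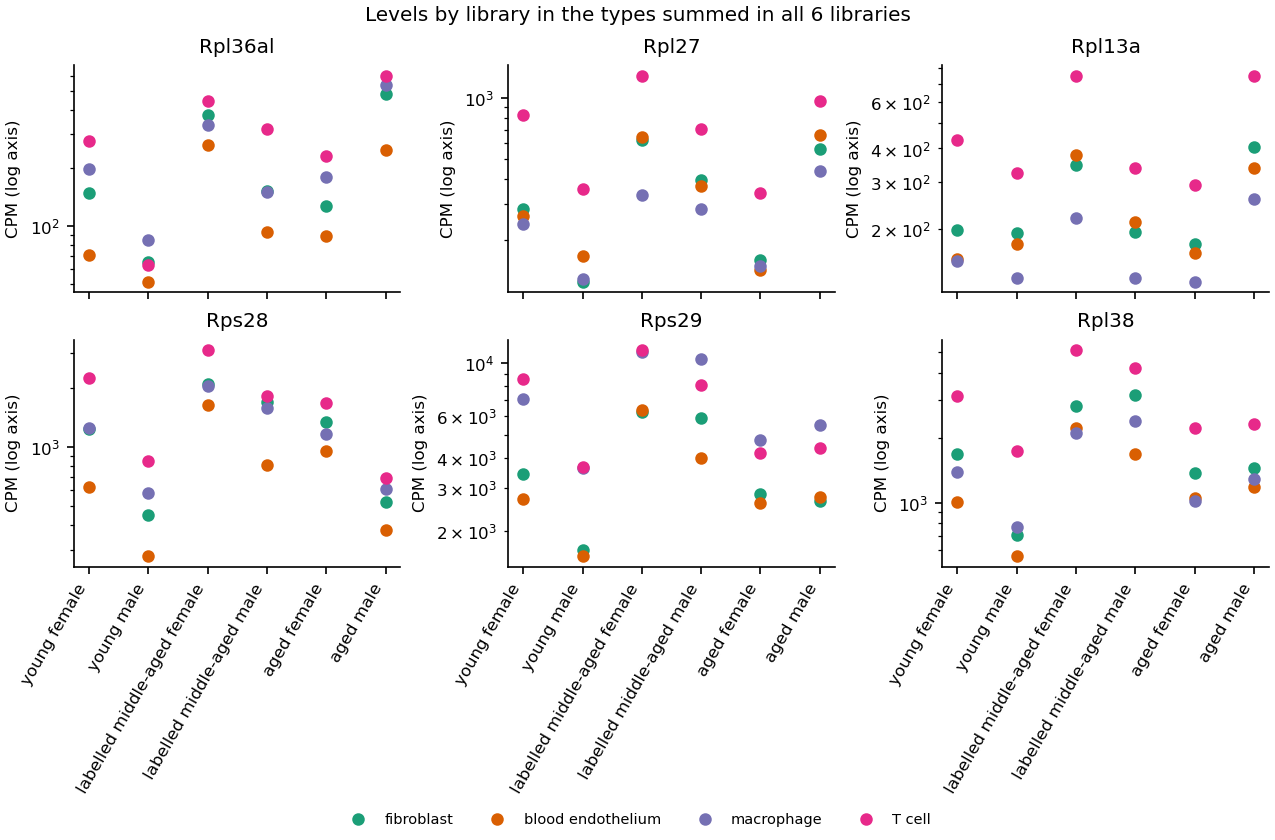
Levels in CPM (y axis, log scale) of 6 genes in each library (x axis) for the 4 types summed in all 6 libraries. Rpl36al, Rpl27 and Rpl13a are highest in aged male and labelled middle-aged female in each type, while Rps28, Rps29 and Rpl38 peak in the 2 middle-aged libraries in fibroblasts.

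A group of genes set apart 2 libraries of different ages in each of the 4 types. Rpl36al, Rpl27 and Rpl13a were higher in 2 libraries, aged male and labelled middle-aged female, than in each of the other 4 in 4 of 4 types, and of the other members Rpl35 was so in 3 types and the rest in at most 2. These genes were chosen after their values were seen. Rpl36al in fibroblasts had 149 and 65.1 CPM in young female and young male, 374 and 151 CPM in labelled middle-aged female and labelled middle-aged male, and 128 and 483 CPM in aged female and aged male. Rpl27, a large-subunit protein, had 284 and 124, 618 and 393, and 160 and 558 CPM, and Rpl13a, known also for a role outside the ribosome in interferon-treated human monocytes, 197 and 193, 347 and 194, and 175 and 403 CPM. In fibroblasts Rpl13a was lowest in aged female and highest in aged male. In aged against young fibroblasts, Rpl36al was -0.37 on the log2 scale without aged male and 2.92 without aged female.

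Rpl36al and Rpl27 share 98-base windows with other transcripts, as given above, and Rpl13a shares none. Rpl13a does overlap the annotated gene Gm45713 on the same strand, as Rpl36al overlaps Gm49383. These libraries also had the highest median UMIs per cell, at 7508 and 4188, and the part of depth or sequence in this pattern was not tested.

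Short and long members diverged between libraries. Over the 80 members at 100 CPM or more in fibroblasts, coding length and the log2 deviation of a gene from its 6-library mean had a Spearman correlation of -0.06 in young female, 0.84 in young male, -0.52 in labelled middle-aged female, -0.77 in labelled middle-aged male, 0.42 in aged female and -0.35 in aged male. This is a correlation across genes, which are not independent and share the library. The other 1372 genes at that level had correlations between -0.13 and 0.17. The 10 members with a coding length of at most 300 bases had a median deviation of -1.18 in young male and 0.82 in labelled middle-aged male, while the 22 members over 600 bases had -0.04 and 0.10. They took 2.38% and 1.15% of fibroblast UMIs in young female and young male, 3.43% and 4.26% in labelled middle-aged female and labelled middle-aged male, and 2.02% and 2.65% in aged female and aged male.

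**Figure D5:**
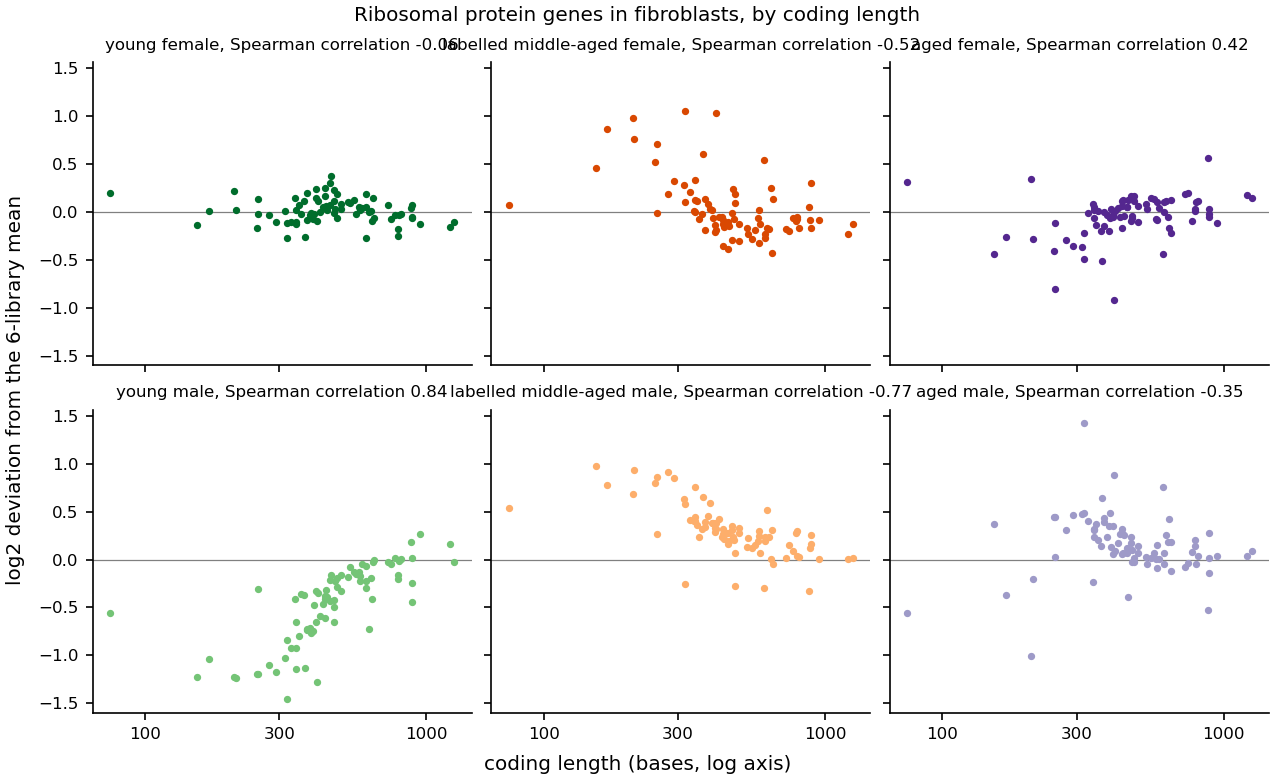
Deviation of each ribosomal protein gene from its mean over the 6 libraries (y axis, log2) against its coding length (x axis, bases, log scale) in fibroblasts, 1 panel per library. Short members are low in young male (correlation 0.84) and high in labelled middle-aged male (correlation -0.77), while young female is flat (correlation -0.06).

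In each of the 4 types the correlation was positive in young male and aged female and negative in both middle-aged libraries and aged male, while young female had -0.06 in fibroblasts and 0.08 to 0.29 in the others. The correlation in young male was 0.83 in blood endothelium, 0.79 in macrophages and 0.79 in T cells, and in labelled middle-aged male -0.63, -0.71 and -0.77. Other genes ranged more widely here than in fibroblasts, from -0.23 to 0.16 in blood endothelium, -0.20 to 0.25 in macrophages and -0.33 to 0.39 in T cells. In aged female T cells the correlation was 0.39 over other genes and 0.29 over members, and in young male T cells -0.33 and 0.79. Other genes of at most 300 coding bases were also low in young male fibroblasts, with a median deviation of -0.40 over 85 genes. In the same library it was -0.28 in blood endothelium and -0.15 in macrophages, but -0.000105 in T cells. Long other genes, over the same limit as the long members, had -0.17 in young male fibroblasts and -0.17 in young male T cells. They had -0.11 in blood endothelium and -0.03 in macrophages of that library. The genes Gm42418, AY036118 and Gm26917, which overlap ribosomal RNA repeats, took 1.35% and 8.30% of fibroblast UMIs in young female and young male, 0.379% and 0.237% in labelled middle-aged female and labelled middle-aged male, and 4.94% and 0.399% in aged female and aged male. The 2 libraries with the most such UMIs, young male and aged female, were those with a positive correlation in fibroblasts. In young male fibroblasts the 8-gene fibroblast list, which includes 3 collagen genes, summed to 64773 CPM, beside 18247 to 34867 CPM in the other libraries. The part of either in the length pattern was not tested. With the 3 ribosomal RNA genes left out of the total, the fibroblast share was 15.8% in young male and 20.0% to 25.1% in the other libraries.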

How the data were processed

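UMI counts per gene and barcode were deposited by the authors as unfiltered matrices. They were made with Cell Ranger 3.0.2 on mm10, and Seurat is also named, per the submitters' processing notes. The labels name an earlier kit version than the length of the barcode list fits. Counts total 9616652 to 28921825 UMIs per library. Each count is 1 captured molecule and is not divided by length, and intervals cover counting error only.

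Cells are barcodes that held 500 or more genes and no more than 10% mitochondrial UMIs. A cell entered a type when at least 3 of that type's 8 markers were detected and at least 2 more than of any other type. Scrublet (in scanpy 1.11.5) marked 590 cells (2.41%), of which 40.0% were in no type, and these were kept except in 1 alternative. Counts were summed per library and type, sums under 20 cells were dropped, and edgeR 4.0.16 (quasi-likelihood, TMM, filterByExpr) was fitted on all genes with Benjamini-Hochberg adjustment over all of them and a threshold of 0.05. DESeq2 1.42.0 was the alternative. Fits were checked on simulated counts with known changes. These counts had the same spread for every gene and no library differences other than depth and the planted changes. The check therefore does not cover the spread between these libraries. Free RNA was read from barcodes of 10 to 100 UMIs. Gene positions and lengths come from GENCODE vM21 and start windows from RefSeq.

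The members, gene lists and tests were chosen with earlier results of these data known. Genes named were those always listed (X-linked, paralogs, stalk, fusions), up to 3 called members per direction and type of at least 30 CPM, the 5 highest and lowest members, and, since no member was called for age, the 3 of smallest p per age contrast and type. Alternatives were other scalings, gates, filters, DESeq2, left-out libraries and exchanged sex labels. No result was tested on the share of UMIs. A few genes that the rule names are not reported here.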

Additional observations from a re-analysis of the deposited data

How the results depend on the processing

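The labels carry no replicate numbers, so no fit used them. Libraries were matched by library in the fits of types and by labelled sex in those of age. Age counts of 0 changed as follows. DESeq2 gave 3 in middle-aged against young fibroblasts, 3 in middle-aged against young macrophages and 2 in aged against middle-aged macrophages. Without a filter on low counts, 2 were called in middle-aged against young blood endothelium (Rpl36al, Rps28). Leaving out single libraries gave 0 to 5 (fibroblasts), 0 to 1 (blood endothelium) and 0 to 8 (macrophages) in middle-aged against young, 0 to 1 (fibroblasts) and 0 to 5 (macrophages) in aged against middle-aged, and 0 to 2 in aged against young macrophages. The other settings that could be run gave 0 members in the age and labelled sex contrasts, and T cells had no age fit, and B cells no type fit, at 1000 genes. The types at 1000 genes were therefore compared without B cells. Rpl36al in aged against young was -0.37 (fibroblasts), -0.12 (blood endothelium) and -0.20 (macrophages) without aged male, and 2.92, 2.45 and 2.77 without aged female.

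Type counts (members called in either direction) moved beyond 1.5 times in these settings: fibroblasts 17 with total UMIs; smooth muscle 31, blood endothelium 30, T cells 40 and B cells 33 with scaling to the members; smooth muscle 44 and monocytes 4 with stricter gates; macrophages 39 and monocytes 14 at 1000 genes. Single libraries left out gave 18 to 41 in fibroblasts, 60 to 75 in smooth muscle, 56 to 65 in blood endothelium, 55 to 66 in macrophages, 5 to 13 in monocytes, 68 to 77 in T cells and 55 to 66 in B cells. The mean share was 23.1% in smooth muscle at 5% mitochondrial UMIs, where the library labelled middle-aged male alone gave a sum. Counting only members over 300 coding bases, it was 12.7% in blood endothelium, 10.6% in macrophages, 25.1% in B cells and 17.9% in lymphatic endothelium. That setting, those without ribosomal RNA genes and the one without the keratin-holding muscle sums were added after seeing the data. Of 467 recomputed counts and shares, 431 stayed within 1.5 times or 1 SD. The cause of these shifts was not tested, and 2 libraries per age limit every age result.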
